A study of Mus musculus with 2 samples.

Results

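The cells described here are neural stem cells in culture that held the highest share of messenger RNA from 6 target genes of the transcription factor p53. Both libraries of the study were pooled, and barcodes were kept with at least 5000 unique molecular identifiers (UMIs, each a tag that stands for 1 captured RNA molecule) and at most 20% of UMIs from mitochondrially encoded genes. Each barcode was scored by the share of its UMIs that came from Cdkn1a, Ccng1, Mdm2, Phlda3, Trp53inp1 and Eda2r. The members are the top 5% by this score that held no UMI of Trib3 or Chac1, a pair of genes of the integrated stress response. They number 349 of the 9882 deposited barcodes, with 210 young and 139 aged ones. The comparators are the other 6282 barcodes that passed the same limits and held no UMI of Trib3 or Chac1.

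The study made droplet libraries (10x Genomics 3′ version 3 chemistry) from neural stem cells isolated from the subventricular zone, a germinal layer beside the brain's lateral ventricles in adult mice. The young library came from C57BL/6 mice aged 2 months and the aged library from C57BL/6 mice aged 15 to 18 months. For both, the tissue of 5 mice was pooled and the dissociated cells were kept in proliferation medium, so the cells measured had been in culture. With 1 library per age, no difference between the ages or between groups of cells has a replicate check, and no p-value is given. The libraries were compared with each other only by levels, ratios and counts, and 95% intervals, where given, cover counting error alone.

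The protein p53 is held at a low level in unstressed cells because Mdm2 marks it for destruction. When DNA damage, replication stress, oxidative stress or faulty ribosome assembly frees it from Mdm2, p53 binds DNA and raises the transcription of genes that halt the cell cycle, repair DNA, alter metabolism or start apoptosis, and of Mdm2 itself. In the subventricular zone, p53 and its target Cdkn1a are known to restrain the self-renewal of neural stem cells. Control of p53 is largely at the level of the protein, so the level of Trp53 messenger RNA need not follow the activity of p53.

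Promoter windows are printed here because the cells were chosen by p53 targets and because the genes that stood lowest in them included genes of DNA replication, a class that E2F factors are known to control. The windows are RefSeq sequences on GRCm38.p6, run from 250 bases before to 50 bases after an annotated start, and are written 5′ to 3′ on the strand of the gene. For 5 of the 6 score genes RefSeq windows were at hand. Capitals mark either a match to the p53 half-site consensus, which reads the same on both strands, or 1 of 4 words bound by E2F factors (TTTCCCGC, TTTGGCGC, TTTCGCGC and TTTGCCGC) on either strand. The windows of Cdkn1a (chr17:29090729-29091028, plus strand), Ccng1 (chr11:40755237-40755536, minus strand) and Mdm2 (chr10:117710709-117711008, minus strand) hold the half-sites. The windows of Mcm3 (chr1:20820263-20820562, minus strand), Cdc6 (chr11:98907901-98908200, plus strand) and Hells (chr19:38930740-38931039, plus strand) hold the E2F words.
Cdkn1a: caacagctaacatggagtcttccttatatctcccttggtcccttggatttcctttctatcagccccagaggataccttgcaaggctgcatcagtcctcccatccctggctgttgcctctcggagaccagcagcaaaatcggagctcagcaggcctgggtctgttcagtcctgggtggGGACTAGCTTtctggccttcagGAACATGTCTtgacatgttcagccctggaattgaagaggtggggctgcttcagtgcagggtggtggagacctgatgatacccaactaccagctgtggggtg
Ccng1: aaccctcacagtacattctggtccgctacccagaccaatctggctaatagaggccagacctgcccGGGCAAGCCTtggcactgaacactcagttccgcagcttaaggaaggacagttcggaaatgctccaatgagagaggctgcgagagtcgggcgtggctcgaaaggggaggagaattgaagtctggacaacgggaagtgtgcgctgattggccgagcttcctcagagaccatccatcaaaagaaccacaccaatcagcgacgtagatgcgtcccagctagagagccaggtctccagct
Mdm2: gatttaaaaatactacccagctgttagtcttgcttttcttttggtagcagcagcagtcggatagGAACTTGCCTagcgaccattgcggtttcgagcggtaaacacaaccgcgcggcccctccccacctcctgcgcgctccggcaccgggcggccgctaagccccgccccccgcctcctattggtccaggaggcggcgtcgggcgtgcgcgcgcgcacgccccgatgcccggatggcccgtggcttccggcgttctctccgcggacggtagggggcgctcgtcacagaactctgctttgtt
Mcm3: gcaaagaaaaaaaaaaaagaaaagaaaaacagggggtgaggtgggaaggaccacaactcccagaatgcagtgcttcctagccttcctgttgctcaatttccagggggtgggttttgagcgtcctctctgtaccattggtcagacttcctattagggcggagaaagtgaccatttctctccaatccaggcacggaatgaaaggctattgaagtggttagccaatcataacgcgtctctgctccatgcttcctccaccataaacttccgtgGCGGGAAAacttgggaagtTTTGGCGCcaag
Cdc6: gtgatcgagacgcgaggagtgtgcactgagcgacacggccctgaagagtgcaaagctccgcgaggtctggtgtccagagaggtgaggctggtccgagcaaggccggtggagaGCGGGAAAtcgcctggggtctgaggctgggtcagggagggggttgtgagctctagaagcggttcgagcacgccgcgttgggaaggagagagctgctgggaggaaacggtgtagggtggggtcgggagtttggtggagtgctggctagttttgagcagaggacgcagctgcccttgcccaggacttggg
Hells: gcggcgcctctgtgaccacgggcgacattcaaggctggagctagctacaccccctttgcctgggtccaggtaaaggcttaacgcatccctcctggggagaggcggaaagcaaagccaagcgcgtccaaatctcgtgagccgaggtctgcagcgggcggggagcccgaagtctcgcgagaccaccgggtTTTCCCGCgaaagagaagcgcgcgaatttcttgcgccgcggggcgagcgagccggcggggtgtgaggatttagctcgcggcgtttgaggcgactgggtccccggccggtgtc

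The Cdkn1a window shown belongs to the upstream of 2 annotated starts, which lie 2790 bases apart. Its half-sites GGACTAGCTT and GAACATGTCT begin 73 and 51 bases before that start, and 2863 and 2841 bases before the downstream start. The window of the downstream start held no match. In Mdm2 the match GAACTTGCCT begins 186 bases before the start, and in Ccng1 the match GGGCAAGCCT begins 185 bases before it. The windows of Phlda3 and Eda2r held none. Of all 27025 genes with a window, 9.55% held at least 1 match to the p53 half-site consensus, and of the 6553 compared genes with a window 8.15% did. A match is a run of letters and was not tested as a binding site.

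Members made up 5.58% of the eligible barcodes of the young library (210 of 3766, exact 95% interval 4.86 to 6.36) and 3.79% of those of the aged library (139 of 3664, 3.20 to 4.46). Among eligible barcodes without a UMI of Trib3 or Chac1 the shares were 6.07% (5.29 to 6.91) and 4.39% (3.70 to 5.16). The share was higher in the young library on either denominator, and with 1 library per age the intervals cover only the counting of cells. The gap depended on the rule: the top 2% gave 75 young and 65 aged members, and a score of Cdkn1a alone 177 and 154. It was wider with a score without Cdkn1a, at 244 and 114, and with a mitochondrial limit of 10%, at 143 and 72. A further 10 young and 13 aged barcodes lay above the score limit and were set aside for a Trib3 or Chac1 UMI. The score is a continuous measure and the members are its upper range, not a separate type. The lowest member had a score of 1941 CPM (UMIs per 1000000 UMIs of the barcode or group) and the highest comparator one of 1940.0 CPM, and 115 members lay within 10% above the limit and 189 comparators within 10% below it.

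Depth was close between the groups. The median member held 25147 UMIs among young and 26620 among aged cells, against 23972 and 25539 in comparators, and the lowest and highest members held 5548 and 61725. Mitochondrially encoded genes took a median of 9.85% and 11.2% of members' UMIs against 9.35% and 9.22% in comparators. Ribosomal protein genes took a median of 12.3% and 12.4% against 14.5% and 14.5%. No doublet caller was run. The libraries shared 4 barcode sequences, of which 0 were members.

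The labelled cell type was checked by summed marker levels. The 12 markers of activated stem cells (Sox2, Nes, Egfr and others) summed to 12676 CPM in young and 10279 CPM in aged members, close to the 12180 and 9943 CPM of comparators, and all 12 were detected in each group. The 9 microglial markers summed to 1.45 and 0.758 CPM in members, with 7 of 9 at 0 in members of both libraries. The 9 markers of pericytes or fibroblasts summed to 1.81 and 0 CPM, again with 7 of 9 at 0 in both, and the 7 endothelial markers summed to 3.44 and 2.53 CPM. The 10 neuroblast markers summed to 433 and 409 CPM in members and to 452 and 450 CPM in comparators, with Dlx5 at 0 in all members. The 10 markers of oligodendrocyte precursors were at 1665 and 1120 CPM in members against 1809 and 1406 in comparators. Astrocyte or quiescent stem cell markers differed more and are described with Apoe.

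The score genes define the members, so their levels are a description. Cdkn1a encodes p21, the inhibitor of cyclin-dependent kinases through which p53 halts the cycle, and gave 52.5% of the members' score UMIs in young and 58.1% in aged cells. Single young members held from 2 to 93 Cdkn1a UMIs with a median of 31, and aged members from 7 to 132 with a median of 42, while the median comparator held 7 in either library. Summed over cells, Cdkn1a stood at 1267 CPM in young members and 368 CPM in young comparators, and at 1515 and 354 CPM in the aged library. Cdkn1a thus gave the most UMIs of the 6 genes in every group, in counts of 3′ ends that do not depend on transcript length.

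Among the feedback genes of the score, Ccng1 (cyclin G1, which recruits a phosphatase that activates Mdm2) stood at 377 CPM in young members against 170 in comparators and at 369 against 134 in the aged library. Mdm2 stood at 116 against 50.8 CPM and at 104 against 45.5 CPM. Phlda3, which restrains the kinase Akt, stood at 392 against 162 CPM and at 381 against 135 CPM. These 3 genes were between 2.22 and 2.83 times higher in members. Trp53inp1, a stress protein that acts with p53 in apoptosis and autophagy, stood at 203 against 64.5 CPM and at 188 against 48.4 CPM. Eda2r, an ectodysplasin receptor of the tumour necrosis factor receptor family, gave the fewest UMIs, at 57.2 against 23.6 CPM and at 51.3 against 20.9 CPM.

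**Figure D1:**
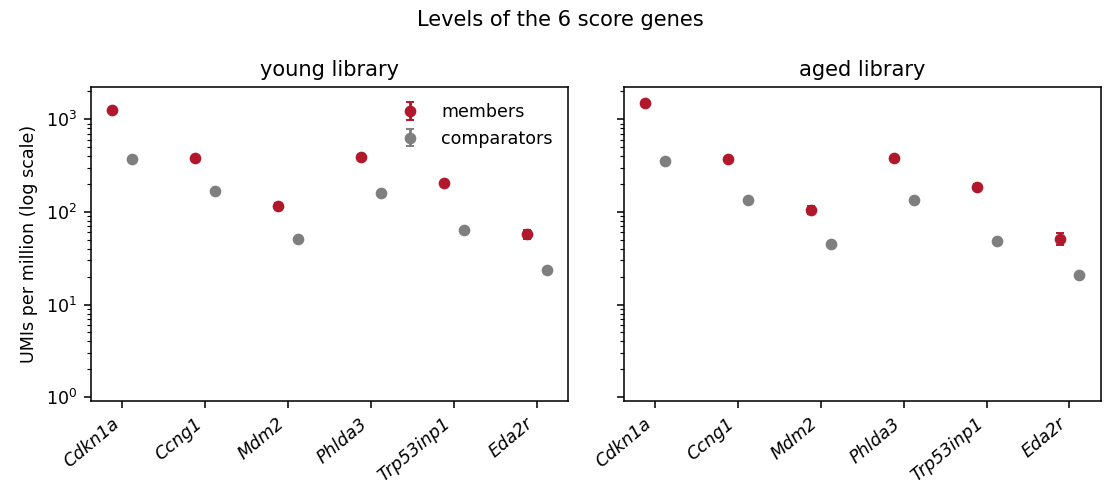
Summed level of the 6 score genes, in CPM on a log scale, in members (red) and comparators (grey) of the young library (left) and the aged library (right), with exact Poisson 95% intervals that are mostly smaller than the points. The members stand above the comparators at each gene, by rule, and Cdkn1a is the highest, at 1267 and 1515 CPM in members.

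All 6 score genes were detected in 218 of the 349 members, 5 in 109, 4 in 21 and 3 in 1. Membership by Cdkn1a and by the other genes overlapped in part. Of 331 barcodes chosen by Cdkn1a alone and 358 chosen by the other 5 genes alone, 122 were shared, which is 36.9% of the first and 34.1% of the second. Of the 349 members, 244 were among the first, 214 among the second and 13 among neither.

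To read each score gene in cells that it did not help to choose, the cells were chosen again with that gene left out of the score, a check added after the data had been seen for all but Cdkn1a. Cdkn1a stood at 953 CPM in the 244 young cells so chosen against 389 CPM in their comparators, a ratio of 2.45 (2.38 to 2.52), and at 1293 against 377 CPM in 114 aged cells, a ratio of 3.43 (3.31 to 3.55). Trp53inp1 had ratios of 2.55 (2.38 to 2.73) and 3.37 (3.10 to 3.66). Ccng1, Mdm2, Phlda3 and Eda2r were 2.00 to 2.20 times higher in young and 2.08 to 2.48 times higher in aged cells. For all 6 genes, cells chosen by the other 5 thus stood higher, at ratios from 2.00 to 3.43. When members were chosen on a random 50% of the UMIs and Cdkn1a was read in the others, the ratio was 3.07 in young and 3.90 in aged cells, against 3.44 and 4.28 with all UMIs. Across the 3462 young and 3169 aged eligible barcodes without Trib3 or Chac1, the Cdkn1a share and the share of the other 5 genes had a Spearman correlation of 0.60 in either library, as a description of barcodes that share a library and a denominator.

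Outside the score, 8205 genes with at least 10 CPM over members and comparators together were compared. A gene was called where it stood at least 1.5-fold higher, or lower, in members of both libraries, on CPM with 1 CPM added. This rule called 115 genes (1.40% of those compared) higher and 73 (0.890%) lower. At 2-fold it called 28 (0.341%) and 5 (0.0609%). The comparison was not tested, because the members were chosen on the same cells' UMIs. Of the compared genes, 14 passed the filter only because members were counted in.

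The p53 targets that are not in the score were listed from general knowledge of the pathway, with earlier results of these data known. Of 80 that the matrices name, 57 passed the filter, none of them only through the members, and 23 lay under it. Of the 57, 21 (36.8%) were called higher, against 1.40% of all genes compared, and 2 (3.51%) lower, against 0.890%. In all, 43 of 57 were higher by any amount in both libraries, as were 32.9% of all genes. The median log2 ratio was 0.46 in young and 0.49 in aged cells, against -0.01 and -0.04 over all genes. These 21 made up 18.3% of the genes called higher.

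Genes of cell cycle arrest were the most uniformly high. All 11 that passed the filter were higher in both libraries, against 32.9% of all genes, and 8 (72.7%) were called, against 1.40%. Rprm (reprimo, which holds cells in G2) stood at 80.9 CPM in young members against 29.2 in comparators, and at 88.4 against 30.6 in the aged library. Btg2, an antiproliferative gene that is also counted among the immediate early genes, stood at 83.4 against 36.5 CPM and at 90.1 against 33.0 CPM. Tob1, a relative of Btg2, stood at 54.5 against 23.6 CPM and at 53.8 against 23.7 CPM. Sesn2 (sestrin 2, an inhibitor of mTORC1 signalling that the integrated stress response also raises) was 2.58 times higher (2.31 to 2.88) in young and 3.22 times (2.83 to 3.65) in aged members. The others called were Zmat3, an RNA-binding protein, at ratios of 1.62 and 1.67, and Gtse1, Ckap2 and Psrc1, which encode proteins of the spindle and its microtubules and are also read in dividing cells. Psrc1 stood at 139 against 65.0 CPM and at 159 against 66.6 CPM. The remaining 3 were below 1.5-fold in at least 1 library: Plk2 was at ratios of 1.18 and 1.01, Gadd45a at 1.44 and 1.07, and Sesn1 at 1.23 and 1.14.

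Of 14 genes of p53-driven apoptosis, 7 passed the filter, 4 were called higher and 1 lower. Those are 57.1% and 14.3% of the 7, against 1.40% and 0.890% of all genes compared. Bbc3 (Puma, a BH3-only protein that opens the mitochondrial route to apoptosis) stood at 43.6 CPM against 13.5 in young and at 38.4 against 11.5 in aged cells, ratios of 3.23 (2.79 to 3.71) and 3.34 (2.80 to 3.97). Apaf1, the scaffold of the apoptosome, was 1.89 and 2.43 times higher. Ei24 stood at 266 against 169 CPM and at 239 against 146 CPM, and the lysosomal protease gene Ctsd at 365 against 240 CPM and at 394 against 228 CPM. Bax, the pore-forming effector, was abundant and higher by less, at 982 against 742 CPM and at 881 against 629 CPM, ratios of 1.32 and 1.40. Trp53i11 was lower, at 150 against 257 CPM and at 103 against 169 CPM. Among the 7 under the filter, the death receptor gene Fas stood at 18.1 against 3.70 CPM and at 26.0 against 4.03 CPM, and Tnfrsf10b, the receptor of Trail, at 15.0 against 3.95 CPM and at 16.2 against 2.52 CPM. Both were named after their values had been seen. Apoptosis genes that are not p53 targets were mostly level, with 0 of 12 called either way. Bcl2l1 (Bcl-xL, which protects cells) was nearest, at ratios of 1.59 and 1.49.

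The repair, metabolic and feedback targets were more mixed. Of 6 repair targets compared, 2 (33.3%) were called higher, against 1.40% of all genes. Ercc5 (an excision repair nuclease) stood at 73.1 against 36.6 CPM and at 69.7 against 33.2 CPM, and Mgmt (which removes alkyl groups from guanine) at 23.5 against 11.5 CPM and at 37.1 against 13.4 CPM. The ribonucleotide reductase subunit gene Rrm2b was at ratios of 0.853 and 0.801. Of 11 metabolic and redox targets, 3 (27.3%) were called higher and 1 (9.09%) lower, against 1.40% and 0.890% of all genes. Gdf15, a secreted stress cytokine, stood at 130 CPM in young members against 36.3 in comparators and at 118 against 22.4 in the aged library, ratios of 3.56 (3.28 to 3.87) and 5.27 (4.75 to 5.84). Ddit4 (Redd1, another inhibitor of mTORC1) was 2.11 and 2.75 times higher, and the adenylate kinase gene Ak1 1.94 and 2.38 times. Tigar, which slows glycolysis, was lower, at 7.24 against 12 CPM and at 5.05 against 11.0 CPM. So the direction was not common to all p53 targets.

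Of 10 feedback genes, 2 were called higher: Rchy1 (Pirh2, a ubiquitin ligase for p53), at ratios of 1.53 and 1.70, and the long non-coding RNA Trp53cor1 (lincRNA-p21, transcribed near Cdkn1a), at 1.54 and 1.88. Mdm4, the partner of Mdm2, stood at 69.5 against 45.8 CPM and at 60.1 against 47.2 CPM, a ratio of 1.52 among young and 1.27 among aged cells. Ppm1d, the phosphatase Wip1, was at 1.34 and 1.28. Among 12 other targets, 2 (16.7%) were called higher, Dcxr (a reductase of dicarbonyls and xylulose) and Plcd4 (a phospholipase C). Dcxr had the highest ratio of the 8205 genes by the lower of both libraries, at 121 CPM against 29.1 in young cells and 177 against 34.9 in aged cells, ratios of 4.18 (3.83 to 4.55) and 5.07 (4.66 to 5.51). Of the genes called higher among these targets, 19 had a promoter window, and 4 of the 19 held a match to the half-site consensus: Ei24, Rchy1, Ckap2 and Gtse1. That is 21.1%, against 19.1% of all 68 listed p53 targets outside the score with a window and 8.15% of compared genes, and rests on 4 genes.

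**Figure D2:**
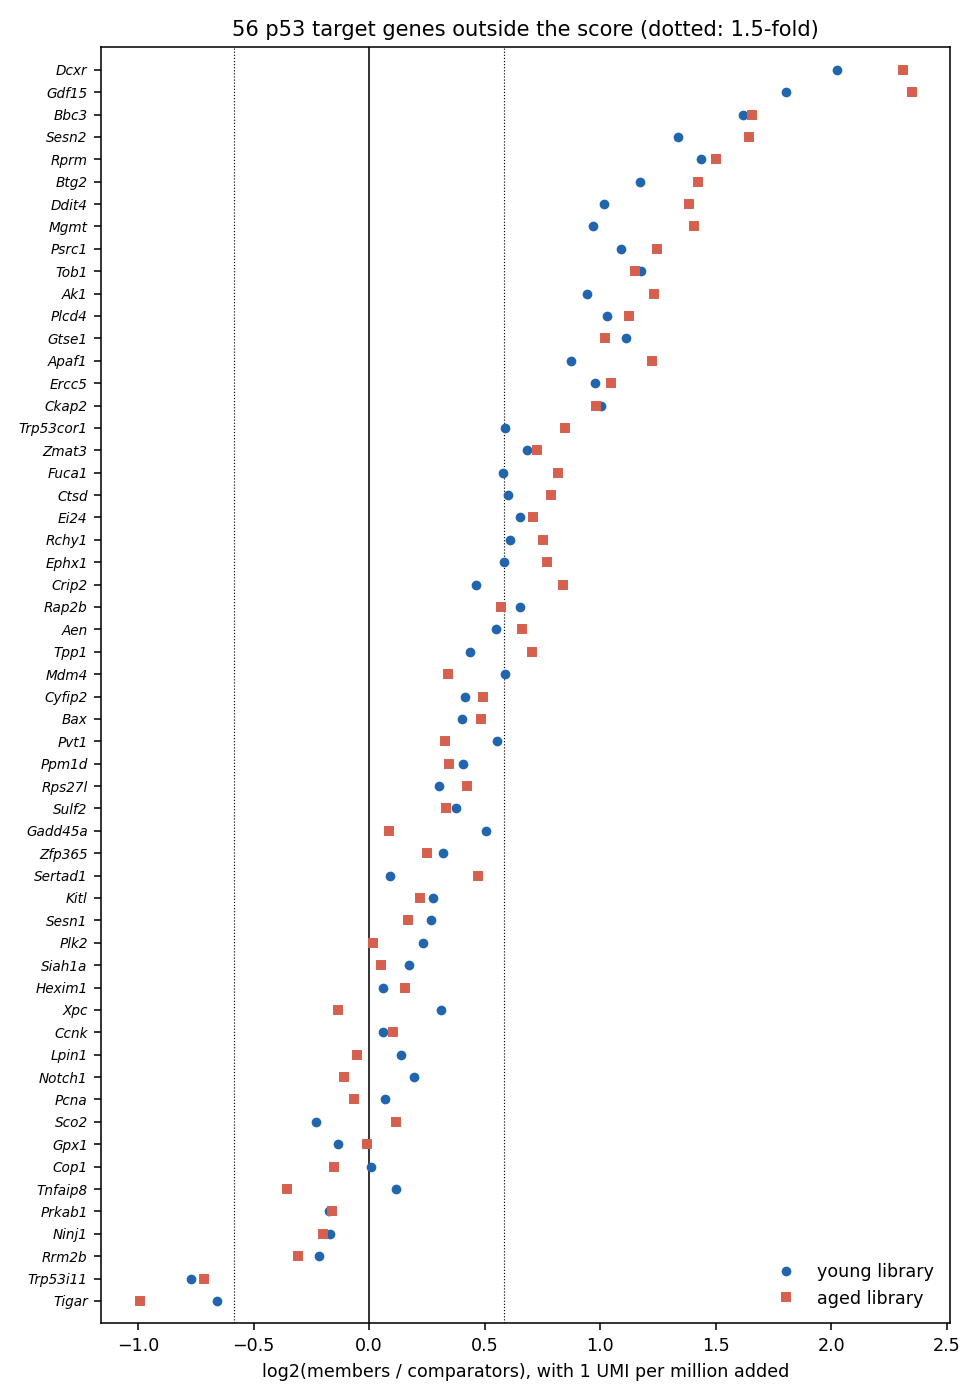
Log2 ratio of members to comparators, with 1 CPM added to each level, for 56 of the 57 p53 targets outside the score that passed the filter, ordered by the mean of the young (blue circles) and aged (red squares) libraries. Dotted lines mark 1.5-fold. Dcxr, Gdf15 and Bbc3 stand highest and Tigar and Trp53i11 lowest.

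Trp53 itself was not higher in the members. It stood at 74.3 CPM in young members and 84.4 in comparators, a ratio of 0.881 (0.796 to 0.974), and at 74.5 and 90.4 CPM in the aged library, a ratio of 0.824 (0.731 to 0.926). Of 20 genes for p53 and its regulators, 0 were called higher and 1 (5.00%) lower, against 1.40% and 0.890% of all genes. The 1 called was Chek1, the kinase of the replication checkpoint, at ratios of 0.623 and 0.580. Atm, the kinase that signals double-strand breaks, was at 0.789 and 0.744. Cdkn2a, whose Arf product binds Mdm2, stood at 289 against 214 CPM and at 171 against 116 CPM, ratios of 1.35 and 1.48, and its counts do not separate Arf from p16. Of 22 genes that sense or repair DNA damage and are not listed as p53 targets, 0 were called either way, and their median log2 ratio was -0.14 in both libraries.

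Among the 15 genes with the highest ratios, several belong to no p53 list. Gria1 and Gria3, subunits of AMPA glutamate receptors, were 2.46 and 2.08 times higher in young and 2.44 and 2.16 times higher in aged members. Cdkn2b, which encodes the CDK inhibitor p15, stood at 59.0 against 24.5 CPM and at 55.6 against 22.5 CPM. Cox6b2, a cytochrome oxidase subunit best known from testis, stood at 77.6 against 34 CPM and at 127 against 45.1 CPM. Sparc, a secreted matrix protein, stood at 203 against 98.2 CPM and at 123 against 45.0 CPM. Usp2, a deubiquitinase that acts on Mdm2, was 2.15 and 2.21 times higher. With a mitochondrial limit of 10%, the smaller log2 ratio of both libraries dropped below 1.5-fold for Cdkn2b (1.23 to 0.27), Gria1 (1.25 to 0.52), Cox6b2 (1.17 to 0.54) and Sparc (1.04 to 0.51). Without the barcodes high in astrocyte markers it was 0.41 for Gria1 and 0.54 for Sparc. The other CDK inhibitors moved less. Cdkn1b (p27) stood at ratios of 1.11 and 1.01 and Cdkn2d (p19) at 1.52 and 1.5, which with 1 CPM added fell short of the rule in at least 1 library.

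The lowest genes included several that act in DNA replication, and licensing and S genes were 8 of the 73 called lower (11.0%). Ung, the uracil glycosylase that clears uracil from new DNA, stood at 7.24 CPM in young members against 44.2 in comparators and at 10.4 against 42.0 in the aged library, ratios of 0.164 (0.117 to 0.223) and 0.247 (0.177 to 0.335), the lowest of the genes named. Cdt1 and Cdc6, which load the replicative helicase, stood at 12.5 against 30.0 CPM and 5.43 against 16.7 CPM in the young library, and at 11.9 against 27.8 CPM and 6.57 against 16.4 CPM in the aged. The helicase subunit gene Mcm3 stood at 76.3 against 140 CPM and at 69.2 against 131 CPM, and Hells, a chromatin remodeller of replicating cells, at 32.0 against 60.7 CPM and at 27.5 against 57.5 CPM. Of 47 genes of licensing, forks and S phase, 8 (17.0%) were called lower, against 0.890% of all genes compared, and 0 higher. The other 3 were Mcm5, Uhrf1 and E2f1, and the list's median log2 ratio was -0.22 and -0.33.

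Not all S phase genes were low. Rrm2, which makes deoxynucleotides, stood at 215 against 195 CPM and at 216 against 210 CPM, and Pcna, the sliding clamp and itself a p53 target, at 198 against 189 CPM and at 168 against 176 CPM. The 8 called lower include the origin licensing genes Cdc6, Cdt1, Mcm3 and Mcm5, which act before replication begins. In their promoter windows, 6 of the 8 called genes held 1 of the 4 E2F words, which were present in 36.1% of all 36 listed licensing and S genes with a window, 5.40% of compared genes and 2.61% of all genes. Among all genes called lower, 14 of the 57 with a window (24.6%) held one. The words are shown in the printed windows of Mcm3, Cdc6 and Hells, where those of Mcm3 lie after the start.

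Genes of ribosome assembly were low as a group. All 24 compared were lower in members of both libraries, as were 42.4% of all genes, and 8 (33.3%) were called. The median log2 ratio was -0.52 and -0.61. Gnl3 (nucleostemin, a nucleolar GTPase of stem cells) stood at 64.2 against 107 CPM and at 53.3 against 101 CPM, and Nolc1, a nucleolar chaperone, at 85.2 against 138 CPM and at 79.8 against 139 CPM. Ddx21, a nucleolar helicase, and Polr1b, a subunit of RNA polymerase I, were at ratios of 0.605 and 0.586 in young and 0.616 and 0.573 in aged cells. In 51.4% of young members (44.5 to 58.4) and 61.9% of aged ones (53.3 to 70.0) the summed share of these genes lay below the lower quartile of their library's comparators. Among the 15 lowest genes, Rrp15 (pre-ribosomal processing), Mettl1 (transfer RNA methylation) and Ppat (the first enzyme of purine synthesis) were of related function, with ratios between 0.497 and 0.567. The remaining ones were Cdca7 (0.431 and 0.350), Dtl, an adaptor of the ligase that degrades Cdt1 and p21 (0.547 and 0.526), Bcat1, Fam136a, Limd1, Nptx2, Tmem158 and Zmynd19.

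**Figure D3:**
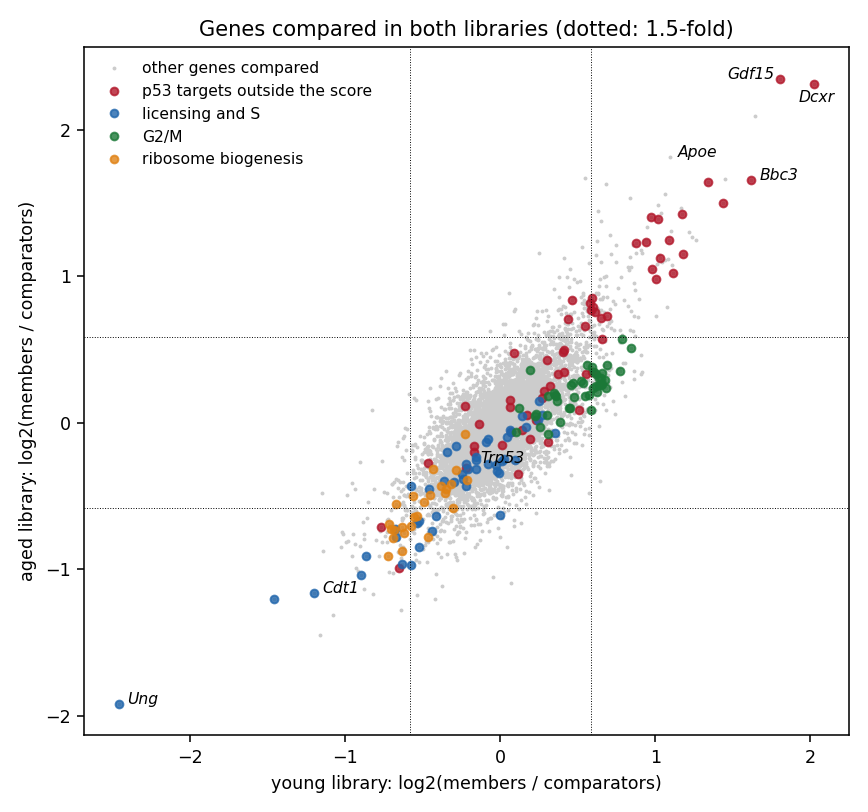
Log2 ratio of members to comparators in the young library (horizontal) against the aged library (vertical) for the 8205 genes compared, with p53 targets outside the score in red, licensing and S genes in blue, G2/M genes in green and ribosome biogenesis genes in orange. Dotted lines mark 1.5-fold. Red points extend to the upper right, blue and orange ones to the lower left, and green ones lie right of zero, higher in the young library than in the aged.

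The members lay at both ends of the cell cycle rather than at one. The summed share of 43 G2/M genes was below the lower quartile of comparators in 35.2% of young members (28.8 to 42.1) and above the upper quartile in 43.8% (37.0 to 50.8), while the middle range, where 50% of comparators lie, held the rest. In the aged library these shares were 41.7% (33.4 to 50.4) and 33.1% (25.4 to 41.6). Cells were then placed in 4 ranges by the quartiles of comparators for G2/M genes and for licensing and S genes. Low cycle cells, below the lower quartile for both, made up 33.8% of young and 41.0% of aged members against 18.8% and 18.1% of comparators. High G2/M cells made up 43.8% and 33.1% against 25% and 25%, a share of comparators that the quartile rule fixes. High S cells made up 11.0% and 13.7% against 22.0% and 21.9%, and cells between these ranges 11.4% and 12.2% against 34.2% and 35.0%. Members were therefore more frequent than comparators at low cycle and at high G2/M, and less frequent in S and between.

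**Figure D4:**
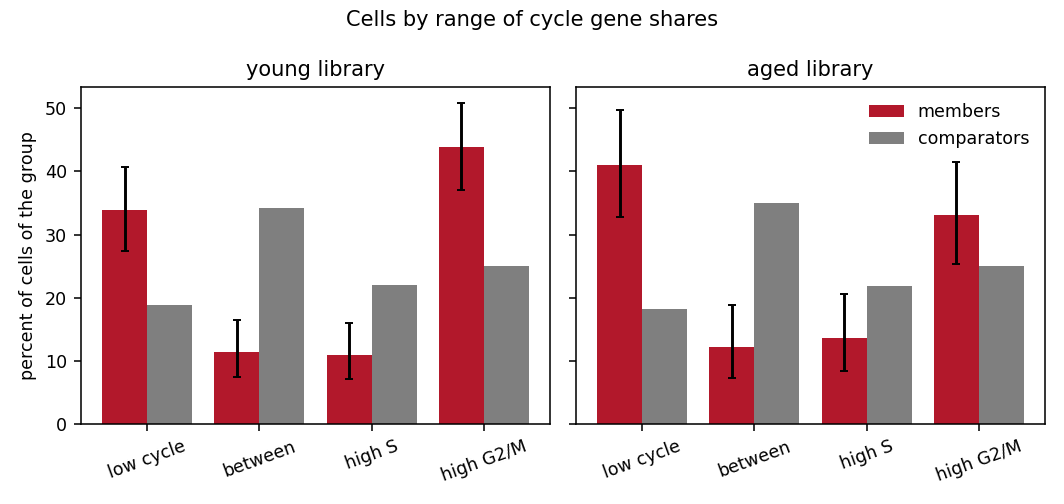
Percent of members (red, exact 95% intervals) and of comparators (grey) in 4 ranges of cycle gene shares, for the young library (left) and the aged library (right). Members are over-represented at low cycle (33.8% and 41.0%) and high G2/M (43.8% and 33.1%) and under-represented in the ranges between and high S.

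Summed over all members, both ends were averaged. Mki67, the proliferation marker, stood at 683 CPM in young members against 434 in comparators and at 602 against 476 in the aged library, yet within low cycle members it was at 8.29 and 13.0 CPM and within high G2/M members at 1229 and 1162 CPM. Of the 43 G2/M genes, 43 were higher in young members and 40 in aged ones. In the young library 18 were at least 1.5-fold higher, against 2.32% of all genes compared, and in the aged library 0, against 2.90%, so 0 were called in both. Nusap1, a spindle protein, was 1.80 and 1.42 times higher and Gas2l3, of the midbody, 1.74 and 1.5 times. The D-type cyclins, which drive the exit from G1, were not low: Ccnd1 stood at 2364 against 1836 CPM and at 2173 against 1798 CPM, and Ccnd2 at 2127 against 1491 CPM and at 1638 against 1128 CPM.

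Of the p53 targets outside the score, Gdf15, Dcxr and Gtse1 stood higher in members of all 4 ranges. For Rprm, Plcd4 and Tob1 the intervals in young high S cells included 1. The ratios were 1.40 (0.856 to 2.16), 1.39 (0.952 to 1.96) and 1.39 (0.771 to 2.34) in turn. For Plcd4 the interval in aged high S cells also included 1, at a ratio of 1.35 (0.887 to 1.96). Trp53i11 and Tigar, which were lower over all members, are not given by range. Cdkn1a was higher within each range as well, by 2.86 to 4.73 times, which the selection by score fixes. It stood at 1343 and 1745 CPM in low cycle members and at 1230 and 1363 CPM in high G2/M members, of the young and aged libraries in turn. Gdf15 was between 3.02 and 5.98 times higher within a range. Dcxr was highest at low cycle, at 228 and 283 CPM against 53.8 and 64.6 in comparators of that range, and lowest in high S cells, at 34 and 45.7 CPM against 16.5 and 15.6. The spindle genes followed the cycle as well: Gtse1 was 2.83 and 3.50 times higher in low cycle members but 1.66 and 1.48 times in high G2/M members. Summed over p53 targets outside the score that are no cycle genes, the ratio was 1.40 and 1.54 at low cycle, 1.48 and 1.51 between, 1.23 and 1.42 in high S cells and 1.31 and 1.35 in high G2/M cells. Cdkn2a differed by range, at ratios of 1.03 (0.951 to 1.13) and 0.859 (0.751 to 0.979) at low cycle and 1.58 and 1.67 in high G2/M cells.

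The low genes were also read within ranges. The summed level of ribosome biogenesis genes was lower in members of each range, at ratios of 0.662 to 0.866. Ung was lower in 3 of the 4 ranges in both libraries, with ratios from 0.113 (0.0307 to 0.290) in young cells between the ranges to 0.431 (0.275 to 0.643) in aged high S cells. The members held few Ung UMIs: 2 and 4 at low cycle, 4 and 7 between, and 24 and 24 in high S. In high G2/M members Ung rested on 10 and 6 UMIs, at ratios of 0.548 (0.258 to 1.04) and 0.648 (0.234 to 1.45), whose intervals include 1. Cdt1 had 1 and 2 UMIs in low cycle members, too few to compare with the high S range. In high S cells its ratios were 0.920 (0.645 to 1.28) and 0.760 (0.494 to 1.12). Between the ranges Cdt1 was lower, on 7 and 5 UMIs, at 0.326 (0.131 to 0.675) and 0.342 (0.111 to 0.800). In high G2/M cells its intervals included 1, at 0.693 (0.437 to 1.05) and 0.791 (0.427 to 1.35). A check added after the data had been seen weighted comparators to the members' ranges. It called 19 of the 57 p53 targets higher in place of 21, and 1 licensing or S gene lower in place of 8. For ribosome biogenesis genes, 2 in place of 8 were called lower. The ranges were set by the shares of the same licensing and S genes, so the weighting evens out that list in part by construction.

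Across eligible barcodes without a UMI of Trib3 or Chac1 the share of p53 targets moved with the score by degrees. These barcodes, 3462 young and 3169 aged, were cut by score within each library into 10 groups of near equal size. Non-score p53 targets, cycle genes left out, took 0.411% of UMIs in the lowest group of the young library, 0.480% in the fifth and 0.638% in the highest, and 0.368%, 0.439% and 0.587% in the aged library. They increased at each step. Ribosome biogenesis genes took 0.592% in the lowest and 0.365% in the highest group of the young library, and 0.552% and 0.360% among aged barcodes. G2/M genes went from 0.519% to 0.833% in young cells, and in aged ones from 0.555% to 0.801% in the ninth group and 0.727% in the highest. The non-score targets' share lay above the comparators' upper quartile in 80.5% of young members (74.5 to 85.6) and 85.6% of aged ones (78.7 to 91.0).

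**Figure D5:**
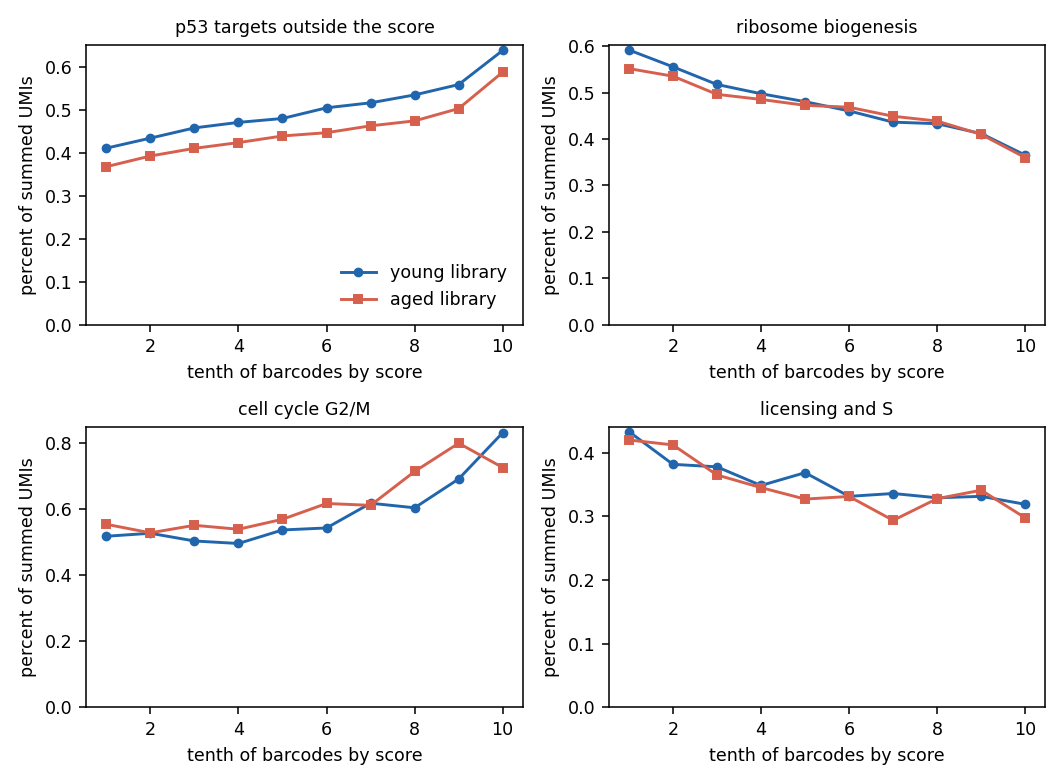
Percent of summed UMIs from 4 gene lists in 10 near equal groups of eligible barcodes without a Trib3 or Chac1 UMI, ordered by score. The young library is drawn as blue circles and the aged as red squares, with axes from 0. The p53 targets outside the score climb from 0.411% and 0.368% to 0.638% and 0.587%, and ribosome biogenesis genes decline from 0.592% and 0.552% to 0.365% and 0.360%.

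Other stress programmes were largely level or low. Of 21 genes of the integrated stress response, 2 (9.52%) were called higher, against 1.40% of all genes. They were Sesn2 and Ddit4, which are also listed as p53 targets. The factor gene of this response, Atf4, stood at 93 against 106 CPM and at 100.2 against 115 CPM. Ddit3 (Chop) stood at ratios of 1.48 and 1.88, and the folate enzyme gene Mthfd2 at 0.697 and 0.728. The condition on Trib3 and Chac1 bears on this list. Of 16 genes of the unfolded protein response 0 were called, and Hspa5 (BiP) stood at ratios of 0.854 and 0.860. Of 13 heat shock and chaperone genes 0 were called and 11 were lower in both libraries, against 42.4% of all genes. Hspd1 was at 0.763 and 0.780. Of 17 NRF2 and antioxidant genes 0 were called, with Hmox1 at 1.45 and 1.84. Of 8 senescence genes compared, 1 (12.5%) was called higher, Cdkn2b, against 1.40% of all genes. The nuclear lamina gene Lmnb1 stood at 0.943 and 0.764. Immediate early genes were higher in both libraries in 12 of 14, of which 1 gene passed the filter only through the members, against 32.9% of all genes, and 3 were called against 1.40% of all genes: Btg2, Fos (93.9 against 52.4 CPM and 44.4 against 21.1 CPM) and Fosb.

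Markers of astrocytes or quiescent stem cells summed to higher levels in members, with Apoe the main single contributor. The 18 markers summed to 2932 CPM in young members against 2312 in comparators and to 3938 against 2611 in the aged library, and none was at 0. Of the 12 compared, 1 passed the filter only through the members. In both libraries 8 were higher and 2 lower, against 32.9% and 42.4% of all genes. Apoe and S100b were called higher, 2 of 12 (16.7%), against 1.40% of all genes. Apoe, the lipid carrier of glia, stood at 624 against 291 CPM and at 902 against 256 CPM, ratios of 2.14 (2.07 to 2.22) and 3.52 (3.39 to 3.65). Single cells varied widely: the members' lower and upper quartiles of Apoe were 0.00380% and 0.0654% of UMIs in young and 0.00372% and 0.0791% in aged cells. In low cycle members Apoe was at 1348 and 1699 CPM against 828 and 746 in comparators of that range. Without the barcodes above the comparators' upper quartile of these markers, a check added after the data had been seen, 23 of the p53 targets were called higher, 5 licensing or S genes lower and 4 ribosome biogenesis genes lower. With a mitochondrial limit of 10% the same counts were 23, 3 and 2.

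Between the ages, members differed in their number, as given above, and in single genes. Of the 8205 genes, 141 (1.72%) were at least 1.5-fold higher in aged than in young members and 189 (2.30%) lower, against 68 (0.829%) and 61 (0.743%) in comparators. The members' sums hold 5527926 and 3960260 UMIs and the comparators' 80732715 and 81311776, so counting error alone is larger in members. When members were chosen on a random 50% of the UMIs and read in the others, these counts were 253 and 339. At 50 CPM or more over members and comparators together, 32 genes (0.987%) were higher and 36 (1.11%) lower in aged members. In comparators 21 (0.648%) were higher and 15 (0.463%) lower.

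Of the 16 genes named for their difference with age in members, 13 also differed at least 1.5-fold in the same direction in comparators, and Pdlim4, Aldoc and Thrsp did not. Mef2c, a transcription factor, stood at 56.3 CPM in young and 135 in aged members, and at 48.0 and 121 CPM in comparators. Hbegf, a ligand of the Egf receptor, stood at 54.8 and 123 CPM and at 40.8 and 83.0 CPM. Pdlim4, a cytoskeletal adaptor, was different, at 74.3 and 158 CPM in members, a ratio of 2.12, and at 50.5 and 48.9 CPM in comparators, a ratio of 0.967. Aldoc, the aldolase of astrocytes, had a ratio of 2.13 in members and 1.42 in comparators, and Mt3, Arl4c and Akap7 had ratios of 1.92 to 2.00 in members and 1.67 to 1.93 in comparators. Lower with age were Pttg1 (securin) at 110 and 44.9 CPM in members, Trf (transferrin) at 67.3 and 27.5 CPM, Fos at 93.9 and 44.4 CPM, Ier3, Anxa3 and Chl1, the last 3 with ratios between 0.370 and 0.524 in comparators. Thrsp was at 0.442 in members and 0.702 in comparators.

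By the median over p53 targets the ages were close. For the 57 targets the median log2 ratio of aged to young was -0.04 in members and -0.08 in comparators. In aged members 1 of the 57 was at least 1.5-fold higher and 4 lower, against 1.72% and 2.30% of all genes. Summed without cycle genes, these targets took 0.670% of UMIs in young and 0.655% in aged members, and 0.491% and 0.443% in comparators. Cdkn1a, a score gene whose level in members is shaped by the selection, was 1.2 times higher in aged than in young members. In comparators its ratio was 0.963. The other 5 score genes together took 0.115% of UMIs in young and 0.109% in aged members, and 0.0471% and 0.0383% in comparators. Of the 43 G2/M genes, 40 were lower in aged than in young members, with a median log2 ratio of -0.16, while 6 were lower in aged comparators, with a median of 0.13. Of all 8205 genes compared, 4349 were lower in aged members and 3739 in aged comparators. High G2/M cells were 43.8% of young and 33.1% of aged members, but by limits taken from each library's own comparators. The limit was higher for aged cells (0.872% against 0.822% of UMIs), so these shares do not compare the ages on a common scale. Licensing and S genes were lower in aged members in 42 of 47 and in aged comparators in 35 of 47.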

How the data were processed

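The deposited matrices give unnormalized UMI counts for each gene and barcode of 2 libraries. The authors made these counts with Cell Ranger 3.0.2 on mm10, per the submitters' processing notes. Which gene models were counted is not given in the sources used. The deposited barcodes were already called cells, with 97774963 UMIs (young) and 101666604 (aged).

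UMIs were summed over members and over comparators of each library and given as CPM. Ratios were called at 1.5-fold in both libraries, on CPM plus 1, among genes with at least 10 CPM over both groups. The 95% intervals are exact: Poisson for levels, binomial on the summed count for ratios, and Clopper-Pearson for shares of cells. UMIs are counts of molecules, and the intervals cover counting error only. Python 3.11.15 with numpy 2.4.6, scipy 1.17.1 and pandas 2.3.3 was used, and the computation was tested on simulated data. Gene symbols and coordinates were matched by identifier to GENCODE vM21 for 27645 of 27998 genes. Promoter matches were counted per gene over both strands.

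The members, the 37 gene lists and the rules were chosen with earlier results of these data known. Named are the score genes, Trp53, Mdm4, Mki67, Ccnd1, Ccnd2, Cdkn1b and Cdkn2a, the 15 highest and 15 lowest genes by the smaller ratio of both libraries at 20 CPM or more (mitochondrial, ribosomal protein, Gm and Rik genes left out), up to 4 genes of each list and, for age, the 8 highest and 8 lowest at 50 CPM or more over members. Further members of the lists were named after their values had been seen. The top share, the order of its steps, the UMI minimum, the mitochondrial limit, thinning to 5000 UMIs, the score genes, the fold and the level filter were varied. No replicate could be left out, as each age is 1 library. Some genes that the rule names are not reported here.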

Additional observations from a re-analysis of the deposited data

Results flagged for a closer look

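The 43 G2/M genes differed between members and comparators in their direction with age. In members 40 of 43 were lower in the aged library, with a median log2 ratio of aged to young of -0.16, and in comparators 6 of 43 were, with a median of 0.13. Of all 8205 genes compared, 4349 were lower in aged members and 3739 in aged comparators. The difference was not tested, since each age is 1 library. High G2/M cells made up 43.8% of young and 33.1% of aged members. The 25% of comparators in this range is fixed by the rule, which takes each library's own upper quartile. That limit was 0.822% of UMIs for young and 0.872% for aged cells. The shares therefore do not compare the ages on a common scale.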

How the results depend on the processing

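Of 146 recomputed counts 97 stayed within 1.5 times the reported value, and the others follow. The top 2% gave 75 young and 65 aged members, 212 genes higher and 183 lower, 18 licensing and S genes lower, and 320 genes higher and 495 lower with age. The top 10% gave 416 and 270 members, 44 genes lower, 5 licensing and S and 2 ribosome biogenesis genes lower, and 115 lower with age. A mitochondrial limit of 10% left 72 aged members, 3 licensing and S and 2 ribosome biogenesis genes. Thinning to 5000 UMIs gave 47 genes lower and 1 ribosome biogenesis gene. Without Cdkn1a in the score 19 licensing and S genes were lower, and by Cdkn1a alone 47 genes were lower, among them 3 licensing and S and 3 ribosome biogenesis genes. Choosing on a random 50% of UMIs gave 253 genes higher and 339 lower with age. A fold of 2 gave 11 p53 targets, 28 genes higher and 5 lower, 3 licensing and S and 0 ribosome biogenesis genes, and 19 and 25 genes by age. A minimum of 50 CPM gave 7 p53 targets, 27 genes higher and 26 lower, 4 licensing and S genes, and 32 and 36 by age, and a minimum of 1 CPM gave 264, 121, 567 and 615 genes. Added after the data had been seen, weighting comparators to the members' cycle ranges gave 24 genes lower, 1 licensing and S and 2 ribosome biogenesis genes. Shares of the licensing and S genes set these ranges, so their count is shaped by the weighting rule. Leaving out barcodes high in astrocyte markers, also added then, left 129 and 80 members, 5 licensing and S and 4 ribosome biogenesis genes, and 292 genes higher with age. Fewer cells or UMIs per group widen counting error in these settings, and the cause of the other changes was not tested. Past 1.5-fold were 36 named genes, which are the 6 score genes and the 15 highest and 15 lowest genes. These kept their direction in the 15 settings that recomputed all of them. The selection fixes the direction of the score genes in most settings. The other genes were picked for the size of their ratios in these same data, so this is a description. Of the 36, 27 stayed past 1.5-fold at a mitochondrial limit of 10%, 34 after thinning, 35 without Cdkn1a in the score, 33 by Cdkn1a alone, 30 with cycle weighting, 33 without barcodes high in astrocyte markers, and 36 in the other 9. By the smaller log2 ratio, cycle weighting took Mcm3 from -0.87 to -0.37, Hells from -0.90 to -0.28, Cdt1 from -1.16 to -0.54 and Dtl from -0.85 to -0.40. Of these, Mcm3, Hells and Cdt1 belong to the list that set the ranges. No paired analysis was possible because each age is 1 library. Depth limits genes under 10 CPM, which were not compared.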

Other observations

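Barcodes outside the limits also reached the score of the members. Of barcodes with at least 5000 UMIs and over 20% mitochondrial UMIs, 5 of 70 in the young library (7.14%, 2.36 to 15.9) and 4 of 40 in the aged (10.0%, 2.79 to 23.7) did so, against 5.84% and 4.15% of eligible barcodes. Of barcodes under 5000 UMIs, 105 of 1315 (7.98%) and 78 of 1027 (7.59%) did, at a median depth of 1238 and 1116 UMIs, where a few UMIs decide the score. Of eligible barcodes with a UMI of Trib3 or Chac1, 10 of 304 in the young library (3.29%, 1.59 to 5.97) and 13 of 495 in the aged (2.63%, 1.41 to 4.45) reached it, against 6.07% and 4.39% of those without.

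Some genes were named after their values had been seen and are examples only. Of all 8205 genes compared, 115 (1.40%) were called higher. Gadd45g, a stress-induced relative of Gadd45a, stood at 97.7 against 50.4 CPM in young and 120 against 50.1 CPM in aged cells, while Gadd45a had ratios of 1.44 and 1.07. Cpt1c, a brain carnitine palmitoyltransferase, was 2.06 and 2.17 times higher, Ddias, which protects cells with damaged DNA from apoptosis in human cells, 1.87 and 2.30 times, and the lamin gene Lmna 1.71 and 1.92 times.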
